A study of Mus musculus with 10 samples.

Results

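The genes described here are those of glycolysis, the pathway that splits glucose into pyruvate in the cytosol, and of the transcriptional response to low oxygen. They were taken as a list of named enzymes, transporters and hypoxia-induced genes that stood in the expression table with a mean of at least 1 FPKM (fragment counts corrected for gene length and library size). All 35 listed genes met this, out of 11228 genes in the table, with pyruvate kinase listed as Pkm. The lowest mean over the libraries was that of Aldoc, at 4.54 FPKM, and the highest that of Gapdh, at 3011 FPKM. By role there were 16 glycolytic enzymes, 3 transporters, 2 genes that act on pyruvate, 3 oxygen-sensing genes and 11 hypoxia-induced effectors.

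The libraries came from mouse myotubes, the multinucleate muscle cells formed by fusion of myoblasts, and were made from polyadenylated RNA at day 2 of in vitro differentiation. Charme, a muscle long non-coding RNA, was targeted with gapmers, antisense oligonucleotides that recruit RNase H to a transcript. There were 2 libraries each for the control gapmer GAP-scr, for GAP-2 and for the set called GAP-2/3, with no other allele or agent named. The labels do not say where the myoblasts came from, the names allow that GAP-2/3 contains GAP-2, and Charme itself is not analysed here, so the extent of knock-down rests on the labels. Whether the 2 libraries of a group came from separate cultures is not stated, so the spread behind each p-value may be only technical.

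Glycolysis begins with glucose uptake and phosphorylation by hexokinase, passes the committed step at phosphofructokinase and ends with pyruvate kinase, and lactate dehydrogenase and a lactate exporter carry the surplus away. Most of its enzymes have a gene that skeletal muscle favours, such as Pfkm, Pgam2 and Eno3, beside more widely expressed ones. Under low oxygen the prolyl hydroxylases of the Egln family lose activity, HIF-1α protein is no longer degraded, and with its partner ARNT it binds a short DNA element with the core ACGTG or GCGTG and raises many of these genes. HIF-1α is set mainly through protein stability, which RNA levels do not show.

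The 7 stretches of 150 bases that follow lie directly before the RefSeq transcription start (GRCm38.p6). They are shown because each belongs to a gene that was lower with GAP-2/3 than with GAP-2 under every processing alternative and holds the HIF core there. Capitals mark ACGTG or GCGTG on either strand (CACGT and CACGC are the same letters read from the other strand), and each sequence is written 5′ to 3′ on the strand of its gene.
Slc2a1 (chr4:119108595-119108744, plus strand): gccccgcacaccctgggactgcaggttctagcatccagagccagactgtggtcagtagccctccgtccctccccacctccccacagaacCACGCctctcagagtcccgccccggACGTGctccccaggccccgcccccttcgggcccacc
Hk2 (chr6:82774455-82774604, minus strand): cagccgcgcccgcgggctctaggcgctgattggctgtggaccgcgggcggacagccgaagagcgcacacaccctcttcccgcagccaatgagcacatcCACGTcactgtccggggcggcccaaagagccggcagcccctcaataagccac
Adm (chr7:110627507-110627656, plus strand): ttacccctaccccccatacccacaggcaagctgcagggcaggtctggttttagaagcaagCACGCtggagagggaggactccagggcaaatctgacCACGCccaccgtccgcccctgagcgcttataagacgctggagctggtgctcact
Car9 (chr4:43506876-43507025, plus strand): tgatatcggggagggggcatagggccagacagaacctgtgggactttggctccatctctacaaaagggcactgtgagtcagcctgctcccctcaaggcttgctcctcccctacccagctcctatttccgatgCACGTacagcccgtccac
Ero1l (chr14:45318573-45318722, minus strand): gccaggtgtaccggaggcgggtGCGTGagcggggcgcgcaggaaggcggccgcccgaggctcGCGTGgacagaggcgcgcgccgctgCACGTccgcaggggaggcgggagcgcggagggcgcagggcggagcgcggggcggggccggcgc
Ddit4 (chr10:59951771-59951920, minus strand): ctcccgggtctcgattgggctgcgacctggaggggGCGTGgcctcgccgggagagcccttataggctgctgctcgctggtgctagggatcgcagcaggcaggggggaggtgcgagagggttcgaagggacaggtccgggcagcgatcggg
Bnip3 (chr7:138909507-138909656, minus strand): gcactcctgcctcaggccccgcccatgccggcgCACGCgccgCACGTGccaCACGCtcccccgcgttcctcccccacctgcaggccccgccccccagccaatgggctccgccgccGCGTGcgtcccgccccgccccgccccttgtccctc

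Bnip3 held the most such runs, 4 that do not overlap, and 1 of them is CACGTG, a palindrome that also holds the E-box bound by MYC. Vegfa and Ndrg1 were also lower under every alternative and are named only; for Vegfa no core was found in these 150 bases. In windows of 300 bases (250 before the start and 50 after), found for 33 of the 35 genes, ACGTG occurred in at least 1 window of 23 genes (69.7%), against 30.5% of the tested genes that had a window and 21.8% of all genes with one. Among the 24 of these genes that fell with GAP-2/3 it was found in 18 (75.0%), and among the other 9 in 5 (55.6%). GCGTG was nearer to the background, at 66.7% of the set and 57.9% of tested genes. Its share was also 66.7% both among the genes that fell and among the other 9. Either core was found in 21 of the 24 that fell (87.5%), in all of the other 9 and in 69.6% of tested genes. With both cores counted per gene, the genes that fell therefore did not hold one more often than the other members. A gene with more windows has more chances of a match, and the 24 had 31 windows and the other 9 had 17. Per window the shares were 77.4% and 76.5% for either core, and 61.3% and 35.3% for ACGTG. The palindrome CACGTG was found in 4 of the 33 genes (12.1%), near the 12.3% of tested genes. It was in 2 of the 24 that fell (8.33%) and in 2 of the other 9 (22.2%). These differences were not tested. A match describes the letters only and shows no binding.

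Most of the set was lower with GAP-2/3, whereas with GAP-2 few members moved and some of those rose. Against GAP-scr 25 of 35 genes fell with GAP-2/3 (71.4%) and 2 rose, at an adjusted p under 0.05 in limma over all 10993 genes tested. The background was 11.3% lower and 28.0% higher. With GAP-2, 1 of 35 was lower and 4 were higher, where 4.18% and 10.4% of all genes were. Both GAP-2/3 libraries lay below both controls in 28 members and above them in 4 (22.3% and 46.7% of all genes), and both GAP-2 libraries did so in 4 and 6 (22.4% and 39.8%). The median change of the set was -0.45 with GAP-2/3 and 0.01 with GAP-2, on the log2(FPKM + 1) scale used for every change here, while the median of all genes was 0.13 and 0.07. Relative to all genes the set therefore lay 0.58 lower with GAP-2/3 and 0.06 lower with GAP-2. With the libraries scaled to one median 26 members fell and 1 rose with GAP-2/3, against 16.3% and 17.5% of all genes. Without GAP-2/3 replicate A or without replicate B fewer members fell, and the calls over all genes dropped as well. Both comparisons share the same GAP-scr libraries, so they are not independent of each other.

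**Figure D1:**
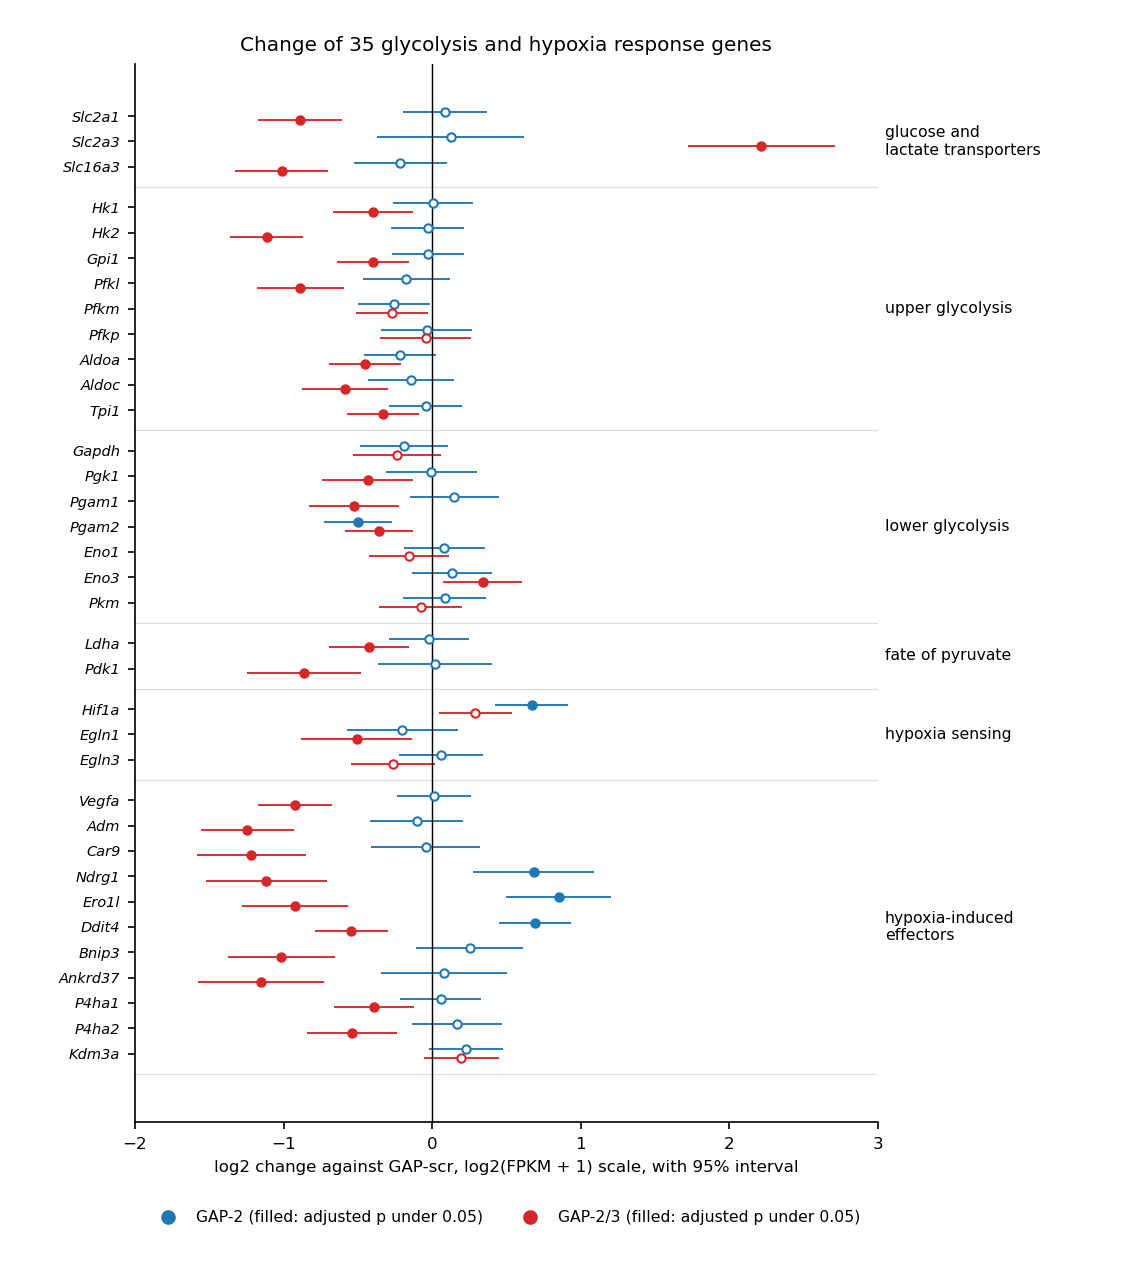
Change of each of the 35 genes against GAP-scr, on the log2(FPKM + 1) scale (x axis), by role (rows); blue is GAP-2 and red GAP-2/3, bars are 95% intervals from limma and filled points passed an adjusted p of 0.05. The red points of 25 genes lie to the left of 0 and passed, while Slc2a3 lies far to the right at 2.22, and in blue Pgam2 passed on the left and Hif1a, Ndrg1, Ero1l and Ddit4 on the right.

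Set directly against each other, which uses no GAP-scr library in the difference, the arms differed in 17 members. Of 35 genes 16 were lower with GAP-2/3 than with GAP-2 (45.7%) and 1 was higher, where 3.65% and 6.5% of all genes were. Both GAP-2/3 libraries lay below both GAP-2 libraries in 28 members and above them in 3, against 23.0% and 38.5% of all genes. All 16 were also called lower against GAP-scr, a pair of calls that 2.31% of all genes had. The count of 16 dropped when replicate A or replicate B of GAP-2/3 was left out, and so did the calls over all genes. It was 24 when GAP-scr was left out of the fit, where 6.52% of all genes were lower.

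Between the arms the hypoxia-induced effectors had the lowest median of the roles. Of 11, 10 fell with GAP-2/3 against GAP-scr (90.9%, against 11.3% of all genes). The same count was lower against GAP-2, where 3.65% of all genes were. The median between the arms was -1.18, and that of all genes 0.05. In bulk RNA, fewer cells that express a gene and less RNA per cell cannot be told apart. Vegfa, which encodes the main growth factor for blood vessels, stood at 107 and 118 FPKM in GAP-scr, 105 and 122 in GAP-2, and 59.7 and 57.8 in GAP-2/3. The GAP-2/3 libraries were thus well below all others, and the change was -0.92 ± 0.11 (SE; adjusted p = 0.000193) against GAP-scr and -0.93 ± 0.11 (adjusted p = 0.000439) against GAP-2. Adm, the vasodilator peptide adrenomedullin, was at 9.61 and 11.4, 8.45 and 11.0, and 4.03 and 3.66 FPKM in the same order. Its change of -1.24 ± 0.14 with GAP-2/3 (adjusted p = 0.000121) was the lowest in the set, and the GAP-scr and GAP-2 libraries overlapped.

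Car9, a membrane carbonic anhydrase, followed the same order at a low level. Its libraries read 6.08 and 7.19 FPKM in GAP-scr, 5.72 and 7.13 in GAP-2, and 2.86 and 1.77 in GAP-2/3. Bnip3, a mitochondrial protein of mitophagy, read 130.1 and 128, 134 and 177, and 75.0 and 53.3 FPKM. The GAP-2 libraries of Bnip3 were above both controls, but the rise of 0.25 ± 0.16 did not pass (adjusted p = 0.309), while the fall with GAP-2/3 was -1.01 ± 0.16 (adjusted p = 0.000967). Ankrd37, an ankyrin-repeat gene induced by HIF-1, was at 13.5 and 17.6, 15.4 and 17.4, and 8.30 and 4.88 FPKM, and its replicates in GAP-2/3 were the most uneven of these genes. P4ha1 and P4ha2, catalytic subunits of the collagen prolyl hydroxylase, changed less, by -0.39 ± 0.12 and -0.54 ± 0.14 with GAP-2/3 (adjusted p = 0.0277 and 0.0106). Neither passed without GAP-2/3 replicate A or without replicate B, and P4ha1 also did not without GAP-scr replicate B, at -0.36. The substrate gene Col1a1, a fibrillar collagen, was at 778 and 808 FPKM in GAP-scr, 789 and 632 in GAP-2, and 385 and 456 in GAP-2/3. Kdm3a, a histone demethylase and HIF target, was the exception among the effectors, at 34.2 and 29.6, 35.4 and 39.6, and 36.7 and 36.5 FPKM. Its change with GAP-2/3 was 0.20, with a 95% interval from -0.05 to 0.45.

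Ndrg1, Ero1l and Ddit4 were higher with GAP-2 and lower with GAP-2/3, each against GAP-scr. Such opposite calls were found in 18 of all tested genes, 0.164%. Ddit4, also known as REDD1, an inhibitor of mTORC1 that other stresses induce too, read 141 and 124 FPKM in GAP-scr, 222 and 206 in GAP-2, and 86.5 and 94.3 in GAP-2/3. No library of one group reached those of another, and the change was 0.69 ± 0.11 with GAP-2 (adjusted p = 0.00252) and -0.54 ± 0.11 with GAP-2/3 (adjusted p = 0.00358). Without GAP-2/3 replicate A the fall of Ddit4 was -0.48 and did not pass. Ero1l, an oxidase that drives disulphide formation in the endoplasmic reticulum, was at 31.8 and 35.02, 49.97 and 74.6, and 18.2 and 16.1 FPKM. Its GAP-2 libraries were both the highest and the most spread. The gene rose by 0.85 ± 0.16 with GAP-2 (adjusted p = 0.00623), and without GAP-2 replicate B this rise was 0.57 and did not pass. Ndrg1, a gene of growth arrest and stress, read 44.8 and 68.4, 76.2 and 106, and 25.4 and 24.6 FPKM. Its fall with GAP-2/3 was -1.12 ± 0.19 (adjusted p = 0.00117). Its rise with GAP-2, 0.69 ± 0.19 (adjusted p = 0.0314), did not pass under 7 of the 16 alternatives. These were quantile normalization, scaling to one median (adjusted p = 0.0769), only the libraries compared, leaving out either GAP-2/3 library, leaving out GAP-2 replicate B, at 0.45, and leaving out GAP-scr replicate A, at 0.39.

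**Figure D2:**
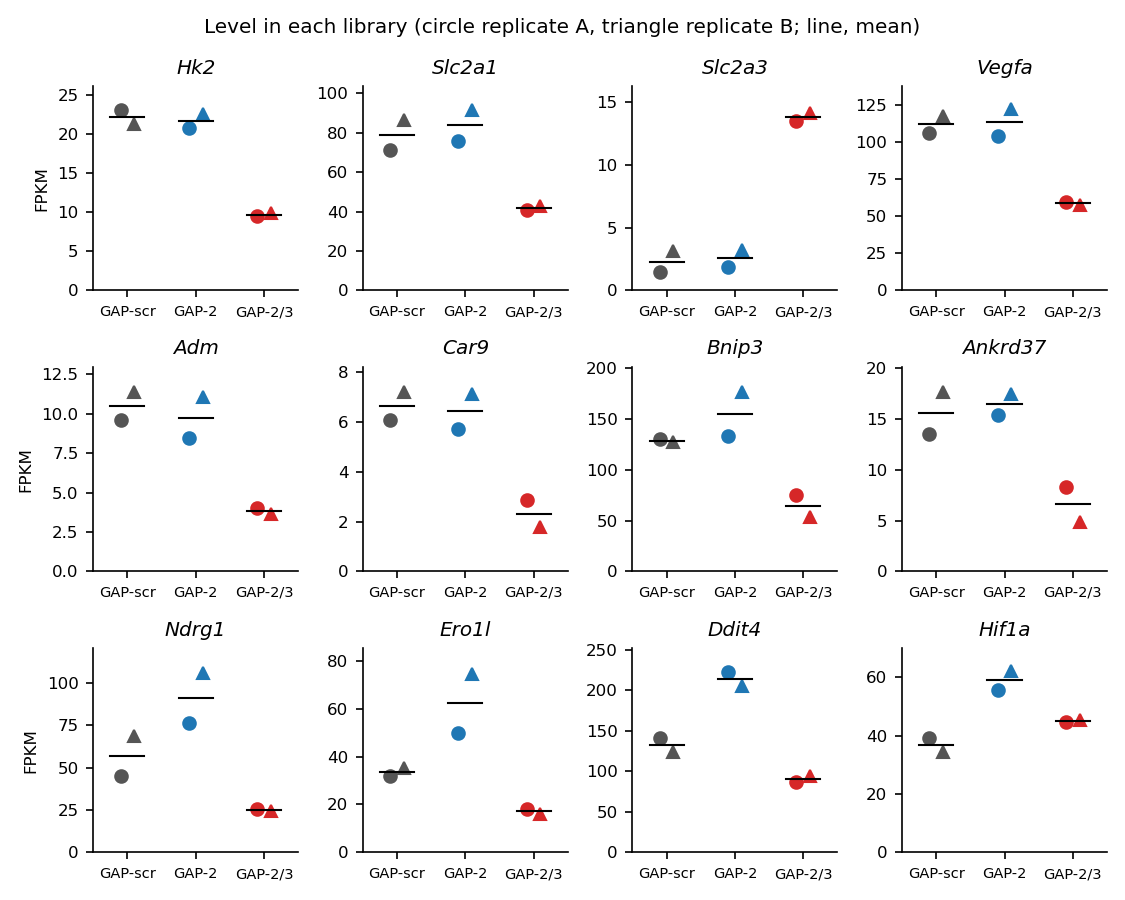
FPKM in each library (y axis, from 0, a separate scale per gene) for 12 of the 35 genes in GAP-scr, GAP-2 and GAP-2/3 (x axis); circles are replicate A, triangles replicate B and lines the mean of 2. In the 11 panels other than Hif1a both GAP-2/3 points stand apart from all others, above them in Slc2a3 and below them in the rest, and in Ndrg1, Ero1l and Ddit4 the GAP-2 points are the highest.

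Against GAP-scr the oxygen-sensing group had a median of -0.26 with GAP-2/3, against -0.92 for the effectors. Hif1a, the regulated subunit of the factor, was at 39.1 and 34.4 FPKM in GAP-scr, 55.8 and 62.3 in GAP-2, and 44.7 and 45.4 in GAP-2/3, so that the 3 groups did not overlap and GAP-2 was highest. It rose by 0.67 ± 0.11 with GAP-2 (adjusted p = 0.00323), and the value with GAP-2/3 was 0.29 ± 0.11 (adjusted p = 0.0597). Egln1, the main prolyl hydroxylase acting on HIF-1α, was at 24.0 and 33.3, 20.7 and 28.9, and 19.2 and 19.96 FPKM, and fell by 0.51 ± 0.17 with GAP-2/3 (adjusted p = 0.0347). This call was lost when GAP-scr replicate B was left out (-0.28) or either GAP-2/3 library. Egln3, a hydroxylase that HIF itself induces, had a value of -0.26 ± 0.13 (adjusted p = 0.127). For Egln1 and Egln3 both GAP-2/3 libraries lay below both controls, as in 22.3% of all genes. Between the arms Hif1a, Egln1 and Egln3 were at -0.38, -0.31 and -0.32, and none passed.

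Of 12 further genes tested for HIF subunits and regulators 2 were lower (16.7%) and 1 was higher (8.33%) with GAP-2/3. Over all genes these shares were 11.3% and 28.0%. With GAP-2 1 was higher (8.33%, against 10.4% of all genes). Siah2, a ubiquitin ligase that acts on the Egln enzymes, was at 16.6 and 17.3 FPKM in GAP-scr, 16.6 and 17.1 in GAP-2, and 11.6 and 11.2 in GAP-2/3. It was lower than in either other group, by -0.54 ± 0.11 and -0.53 ± 0.11 (adjusted p = 0.00337 and 0.0117). Arnt2, a relative of ARNT, fell by 0.48 from a level under 2 FPKM in every library, and Rbx1, a subunit of the ligase that degrades HIF-1α, rose by 0.31. With GAP-2 the gene called higher was Vhl, the substrate receptor of that ligase, at 0.37 ± 0.11. Cited2, which competes with HIF-1α for its coactivators, had a value of -0.25 ± 0.11 with GAP-2/3 (adjusted p = 0.0833).

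Other HIF targets, a wider list of 34 tested genes, went both ways, with a greater share lower than among all genes. With GAP-2/3 9 fell (26.5%) and 5 rose (14.7%) against GAP-scr, where 11.3% and 28.0% of all genes did. Against GAP-2 7 were lower (20.6%) and 2 higher (5.88%), where 3.65% and 6.5% of all genes were. The medians were -0.14 and -0.18. Ak4, a mitochondrial adenylate kinase, was the lowest between the arms, at -1.03 ± 0.14 (adjusted p = 0.00108), though its level was under 3 FPKM in every library. Gys1, muscle glycogen synthase, was lower in both arms, by -0.54 ± 0.12 with GAP-2 and -0.89 ± 0.12 with GAP-2/3. Kdm4b, a histone demethylase, fell by 0.80 ± 0.12 with GAP-2/3, whereas Rab20, a small GTPase, rose by 1.44 ± 0.20 from 1.19 and 1.99 FPKM to 5.59 and 6.27.

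Glucose and lactate transport split by gene. Slc2a1, the glucose transporter GLUT1, stood at 71.1 and 86.4 FPKM in GAP-scr, 75.8 and 91.7 in GAP-2, and 41.0 and 42.8 in GAP-2/3. Slc16a3, the lactate exporter MCT4 of glycolytic muscle, stood at 64.5 and 80.1, 55.6 and 68.6, and 38.3 and 32.3 FPKM. Both fell with GAP-2/3, by 0.89 ± 0.13 and 1.01 ± 0.14 (adjusted p = 0.00053 and 0.000454), and in both the GAP-2 libraries overlapped the controls. Slc2a3, the high-affinity glucose transporter GLUT3, went the other way. It read 1.46 and 3.12 FPKM in GAP-scr, 1.84 and 3.24 in GAP-2, and 13.5 and 14.1 in GAP-2/3, a ratio of group means of 6.03. The change of 2.22 ± 0.23 (adjusted p = 4.63e-05) was the highest in the set, and it passed under all 16 alternatives. Even so its level in GAP-2/3 remained below that of Slc2a1, on the length-scaled FPKM measure.

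Among the enzymes of glycolysis the falls were smaller, with a median of -0.38 against -0.92 for the effectors. Of the 9 genes from hexokinase to triose phosphate isomerase 7 fell with GAP-2/3 (77.8%) and none rose. Of the 7 from glyceraldehyde phosphate dehydrogenase to pyruvate kinase 3 fell (42.9%) and 1 rose (14.3%). Over all genes 11.3% fell and 28.0% rose. The difference between these groups of enzymes was not tested. Hk2, the regulated hexokinase of muscle, was at 23.1 and 21.2 FPKM in GAP-scr, 20.8 and 22.6 in GAP-2, and 9.50 and 9.89 in GAP-2/3. Its fall of 1.11 ± 0.11 (adjusted p = 4.32e-05) was the greatest of any enzyme. Hk1, the widely expressed hexokinase, fell by 0.40 ± 0.12 (adjusted p = 0.0255), a call lost without GAP-2/3 replicate A, at -0.27, without GAP-scr replicate A, at -0.31, or without both libraries highest in Rn45s. Pfkl, the liver-type phosphofructokinase, was at 80.8 and 105, 77.3 and 86.1, and 46.5 and 52.5 FPKM, and fell by 0.89 ± 0.14 (adjusted p = 0.000697). Its muscle and platelet relatives differed from it. Pfkm was at -0.27 ± 0.11 with GAP-2/3 (adjusted p = 0.0721) and -0.26 ± 0.11 with GAP-2, and Pfkp was at -0.04, with a 95% interval from -0.35 to 0.26. Pfkm passed with GAP-2/3 when the libraries were scaled to one median, at -0.39.

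The remaining enzymes of the upper pathway fell by less than 0.60. Aldoa, muscle aldolase, went from 1652 and 1608 FPKM in GAP-scr over 1337 and 1469 in GAP-2 to 1145 and 1239 in GAP-2/3, a change of -0.45 ± 0.11 in the last (adjusted p = 0.00881). The brain-type Aldoc fell by 0.59 ± 0.13, the isomerase Gpi1 by 0.39 ± 0.11 and Tpi1 by 0.33 ± 0.11. Without GAP-2/3 replicate A neither Aldoa, at -0.40, nor Gpi1, at -0.34, passed, and Aldoc did not without replicate B, at -0.45. Tpi1 did not pass without either GAP-2/3 library, without GAP-scr replicate B, without either GAP-2 library or with only the libraries compared, the last 2 settings leaving the value itself at -0.33.

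In the lower pathway, which makes ATP, Pgk1 fell by 0.43 ± 0.14 and Pgam1 by 0.53 ± 0.14 with GAP-2/3 (adjusted p = 0.0304 and 0.012). Neither call was kept without GAP-2/3 replicate A or without replicate B, and that of Pgk1 was also lost without GAP-scr replicate B, at -0.29. Gapdh, often used as a reference gene, read 2906 and 3744 FPKM in GAP-scr, 2792 and 3012 in GAP-2, and 2865 and 2749 in GAP-2/3. The 2 controls of Gapdh differed more than the group means did, and its value of -0.23 ± 0.14 with GAP-2/3 did not pass (adjusted p = 0.187), but without GAP-scr replicate A it was -0.42 and passed. Eno1 and Pkm, the widely expressed enolase and pyruvate kinase, were at -0.15 and -0.08, with 95% intervals from -0.42 to 0.12 and from -0.36 to 0.20. Many of these abundant enzymes, Gapdh, Pgk1, Pgam1, Eno1, Aldoa, Ldha and Pkm among them, have near-identical processed pseudogenes in the mouse genome, so their reads cannot be assigned with certainty.

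The muscle-type genes of the lower pathway did not move together. Pgam2, muscle phosphoglycerate mutase, was at 127 and 129 FPKM in GAP-scr, 92.0 and 89.1 in GAP-2, and 94.97 and 105 in GAP-2/3. It was the only member called lower in both arms, by -0.50 ± 0.10 with GAP-2 (adjusted p = 0.0099) and -0.36 ± 0.10 with GAP-2/3 (adjusted p = 0.0186), and the difference between the arms did not pass (0.14, adjusted p = 0.427). The first call was lost without GAP-2 replicate A, at -0.52, or replicate B, at -0.48, with a change of about the same size, and the second without GAP-2/3 replicate A, at -0.29, or without both libraries highest in Rn45s. Eno3, the muscle enolase, was at 538 and 647, 606 and 695, and 744 and 752 FPKM. It rose by 0.34 ± 0.12 with GAP-2/3 (adjusted p = 0.0456), but this did not pass under 9 of the 16 alternatives, among them scaling to one median, at 0.22, and leaving out any library other than GAP-scr replicate B.

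Shares of isozymes in the summed FPKM of their enzyme show the same split within 1 library at a time. Eno3 made up 30.9% and 30.6% of enolase in GAP-scr, 31.0% and 32.0% in GAP-2, and 38.6% and 38.4% in GAP-2/3. Hk2 made up 25.8% and 26.5% of the sum with Hk1 in GAP-scr, 23.8% and 27.6% in GAP-2, and 18.0% and 16.0% in GAP-2/3. For both enzymes the GAP-2/3 libraries lay outside the range of the other 4. The share of Pgam2 was instead lowest in GAP-2, at 22.1% and 19.2%, against 31.9% and 26.2% in GAP-scr and 30.2% and 32.6% in GAP-2/3. For phosphofructokinase the mean share of Pfkm was 53.6% ± 3.81 with the control gapmer, 51.5% ± 1.13 with GAP-2 and 59.5% ± 0.936 with GAP-2/3 (SD over 2 libraries). Here too the GAP-2/3 libraries, at 58.8% and 60.1%, lay outside the range of the others, of which the highest was 56.3%. Aldoa was over 99% of the sum with Aldoc in every library. With 2 libraries a group these shares were not tested.

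**Figure D3:**
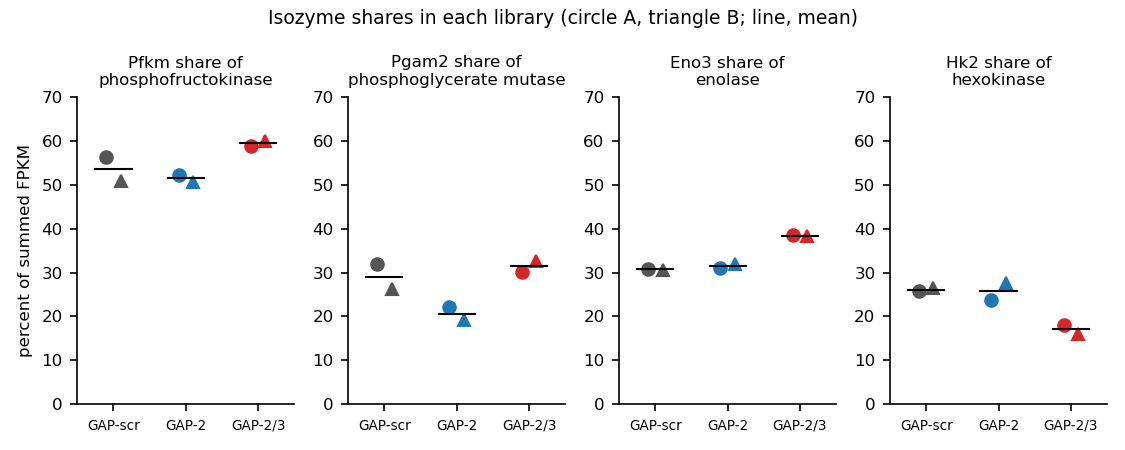
Percent of the summed FPKM of an enzyme held by 1 isozyme (y axis, from 0) in each library, by gapmer group (x axis); circles are replicate A, triangles replicate B and lines the mean of 2. The shares of Eno3 and Pfkm are highest and that of Hk2 lowest in GAP-2/3, and the share of Pgam2 is lowest in GAP-2.

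Downstream of pyruvate, Ldha, which turns it into lactate, was at 966 and 1145 FPKM in GAP-scr, 968 and 1109 in GAP-2, and 805 and 766 in GAP-2/3. It fell by 0.42 ± 0.12 (adjusted p = 0.0188), a call lost without GAP-scr replicate B or either GAP-2/3 library. Pdk1, the HIF-induced kinase that shuts pyruvate dehydrogenase, was at 24.3 and 32.9, 25.2 and 32.5, and 17.5 and 13.1 FPKM, and fell by 0.86 ± 0.18 (adjusted p = 0.00339). Without GAP-2/3 replicate B the value of Pdk1 was -0.66 and did not pass. Pdk4, the kinase of the same complex that fasting and fatty acids induce, rose in both arms, from 11.4 and 12.4 FPKM over 16.4 and 17.6 to 36.3 and 39.0. Its level with GAP-2/3 was higher than with GAP-2 by 1.11 ± 0.11 (adjusted p = 0.000123).

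Of 30 tested genes of pyruvate dehydrogenase and the citric acid cycle 3 were lower and 5 higher with GAP-2/3, the latter a share of 16.7%, below the background of 28.0%. Between the arms none was lower, and the 1 that was higher was Pdk4. Ogdh, a subunit of the oxoglutarate dehydrogenase, fell by 0.62 ± 0.12 and the pyruvate carboxylase Pcx by 0.63 ± 0.15 with GAP-2/3, while Dld, the shared dehydrogenase subunit, rose by 0.49 ± 0.13. In the pentose phosphate pathway, which draws glucose 6-phosphate off to make NADPH, 3 of 8 genes rose with GAP-2/3 and none fell. That share of 37.5% higher stood beside 28.0% of all genes. G6pdx, its first enzyme, read 20.8 and 23.0 FPKM in GAP-scr, 37.5 and 39.0 in GAP-2, and 40.9 and 40.5 in GAP-2/3. It rose by 0.78 ± 0.11 and 0.87 ± 0.11, Tkt by 0.63 ± 0.13 and 0.43 ± 0.13, and none of the 8 passed between the arms. Pgd had a value of 0.29 with GAP-2/3 and Taldo1 rose by 0.29.

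Of 12 further glycolysis genes 3 fell and 4 rose with GAP-2/3, yet 6 were lower than with GAP-2 and none higher. Among all genes 11.3% fell and 28.0% rose with GAP-2/3, and 3.65% were lower and 6.5% higher than with GAP-2. Pfkfb3, which makes the activator of phosphofructokinase and is a HIF target, was at 5.08 and 5.08 FPKM in GAP-scr, 5.22 and 6.64 in GAP-2, and 3.26 and 2.64 in GAP-2/3, and fell by 0.63 ± 0.14 (adjusted p = 0.00527). Pgm2, a sugar phosphomutase, fell by 0.64 ± 0.11. Pgm1 rose by 0.48 ± 0.12, and Bpgm, which makes 2,3-bisphosphoglycerate, rose by 0.82 ± 0.11 with GAP-2 and 0.59 ± 0.11 with GAP-2/3. Of 8 genes for MYC, MAX and related factors, which also bind E-boxes in glycolytic genes, 2 fell and 2 rose with GAP-2/3. The shares of all genes that did so were again 11.3% and 28.0%. Myc was at 14.9 and 17.05, 18.3 and 19.8, and 10.9 and 12.5 FPKM, lower with GAP-2/3 than with GAP-2 by 0.66 ± 0.12 (adjusted p = 0.00637). Mycl1 fell by 0.74 ± 0.18, and Mlx and Mxd4 rose by 0.48 and 0.43.

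**Figure D4:**
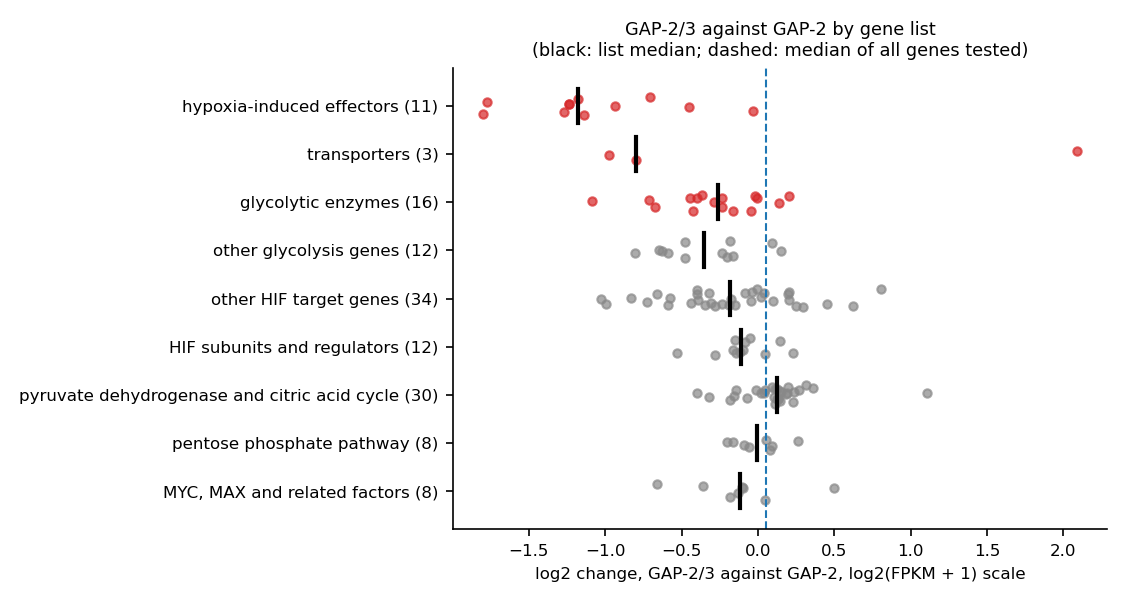
Difference between the arms, GAP-2/3 minus GAP-2 on the log2(FPKM + 1) scale (x axis), for each tested gene of 9 groups (rows, number of genes in brackets); red points are genes of the set, grey points companion lists, black bars list medians and the dashed line the median of all tested genes, 0.05. The effectors have the lowest median, -1.18, and the citric acid cycle genes a median of 0.12.

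With both arms averaged and set against the control, 11 members fell and 2 rose, where 9.57% and 24.5% of all genes did. This average joins opposite calls, so that Ddit4 came to 0.08 ± 0.10 and Ero1l to -0.04 ± 0.14. The count of 11 became 19 without GAP-scr replicate A. The 16 glycolytic enzymes together made up 1.79% and 2.03% of the summed FPKM of the table in GAP-scr, 1.71% and 1.85% in GAP-2, and 1.51% and 1.53% in GAP-2/3.

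Other features of the libraries moved with these groups. Myotube markers, with all 10 listed genes tested, summed to between 11701 and 12467 FPKM in GAP-scr, 6989 and 7182 in GAP-2, and 7588 and 7994 in GAP-2/3. Of these 10 genes 7 fell with GAP-2 and 6 with GAP-2/3, and none rose. Among all genes 4.18% fell with GAP-2 and 11.3% with GAP-2/3, while 10.4% and 28.0% rose. Acta1, skeletal muscle actin, made up the largest part of each sum and fell in both arms, while the myogenic factor Myog fell with GAP-2, by 0.54, and had a value of -0.11 with GAP-2/3 (adjusted p = 0.498). Of 9 tested markers of undifferentiated or cycling myoblasts 7 rose with GAP-2/3 (77.8%) and 2 with GAP-2 (22.2%). Over all genes 28.0% and 10.4% rose. The sum of these markers was 134 and 152, 175 and 179, and 238 and 234 FPKM. Of the fibroblast list 6 of 9 genes were tested, with 2 lower and 2 higher with GAP-2/3 (33.3% each, against 11.3% and 28.0% of all genes). The sums were 2078 and 2060, 2184 and 1868, and 1383 and 1601 FPKM. Col1a1 and Col1a2 made up most of each sum and were lower with GAP-2/3, at -0.92 and -0.46. Dcn rose by 1.48, from a mean of 44.9 FPKM to 125, and Pdgfra by 0.93, from 1.60 to 3.97. Of 7 macrophage markers Cd68 and Cd14 were in the table, with sums of 3.12 and 4.04 FPKM in GAP-scr, 7.28 and 7.70 in GAP-2, and 5.55 and 5.25 in GAP-2/3. Both rose with GAP-2, Cd68 by 1.28 and Cd14 by 0.48, Cd14 also rose with GAP-2/3, and Cd68 was lower with GAP-2/3 than with GAP-2 by 1.06 ± 0.18 (adjusted p = 0.0035). Of 6 adipocyte markers Pparg was in the table, at 0.998 to 2.01 FPKM, and the 6 endothelial markers were not listed. Rn45s, the ribosomal RNA precursor, reached 3387 FPKM in replicate A of GAP-scr and 4090.0 FPKM in replicate A of GAP-2, while the remaining 4 libraries ranged from 93.2 to 176. Without these 2 libraries 25 members fell and 1 rose with GAP-2/3. The part of cell state or of other cell types in the changes of the set was not tested.

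The series also holds ChIRP-seq, in which Charme was pulled down with probes and the attached chromatin sequenced, as 798 merged peaks. No member had a peak within its gene span, where 1.74% of the tested genes with a RefSeq position did. With 10 kb on each side 1 did, Hk2, against 2.53% of those genes. That peak, of 83 bp at chr6:82778371-82778453, lay 3917 bp from the end of the Hk2 span (chr6:82725025-82774454), outside the gene on the side of its start. Positions are read here as GRCm38. The notes name mm9, but a peak ends at position 170732078 of chromosome X, beyond the end of that chromosome in mm9 as it is generally known, so the build is an inference.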

How the data were processed

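RNA-seq came from 6 libraries (3 groups of 2) and ChIRP-seq from 4 (2 Charme probe sets, a LacZ control set and input). Expression values are FPKM, deposited by the authors as 1 table of 11228 genes. The submitters' processing notes list, with no role or version, Trimmomatic and cutadapt, Bowtie2 and TopHat2, Cuffdiff and Cufflinks, bedtools and MACS, and as build mm9. The sources used here do not give how its genes were selected. Whole reads could not be recovered, so the depth is unknown and the planned count test was not run. The merged peaks carry a deposited score per peak, which was not used.

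Genes averaging 1 FPKM or more (10993, leaving out 235) entered as log2(FPKM + 1). In limma 3.58.1 (R 4.3.3) 1 model held all 3 groups, used an intensity trend and had no covariate, and the Benjamini-Hochberg adjustment ran over all genes tested (threshold 0.05). The fit was tested on simulated data. This scale understates the change of low genes. Motif and peak counts used Python 3.11.15 and RefSeq tables of GRCm38.p6. The members and lists were chosen with earlier results of these data known. All members are named, and from each companion list up to 4 genes with the smallest p for GAP-2/3 against GAP-scr, plus any called gene of a list with 5 or fewer calls; Col1a1 was named after its values were seen.

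The settings varied were the pseudocount (0.1), the filter (none, or 5 FPKM on average), the scaling (quantiles, or one median for every library), the intensity trend (off), the replicate letter as a block, a threshold of 0.1, only the libraries compared and each library left out. Leaving out both libraries highest in Rn45s was added after the data were seen. Where a library was left out, the lone library of its group is assumed to vary like the other groups.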

Additional observations from a re-analysis of the deposited data

Results flagged for a closer look

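Ndrg1, Ero1l and Ddit4 are set apart because they were higher with GAP-2 and lower with GAP-2/3, both against the same GAP-scr libraries. The arms also differed from each other by the direct test. That difference is the gap between the changes against GAP-scr, so with opposite calls it follows from them and is no separate support. The difference, GAP-2/3 minus GAP-2, was -1.80 ± 0.19 for Ndrg1 (adjusted p = 0.000142), -1.78 ± 0.16 for Ero1l (adjusted p = 5.84e-05) and -1.24 ± 0.11 for Ddit4 (adjusted p = 5.32e-05), on the log2(FPKM + 1) scale. Each was lower in both GAP-2/3 libraries than in both GAP-2 libraries. The difference passed under all 16 alternatives for each gene. None of the 3 genes kept both opposite calls against GAP-scr under all 16. The rise with GAP-2 did not pass under 7 alternatives for Ndrg1 and without GAP-2 replicate B for Ero1l, and the fall of Ddit4 with GAP-2/3 did not pass without GAP-2/3 replicate A.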

How the results depend on the processing

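No member that passed in any of the 4 comparisons changed sign in an alternative. Leaving out each library in turn gave 0 to 2 members lower and 2 to 4 higher for GAP-2, 13 to 27 lower and 1 to 2 higher for GAP-2/3, 8 to 19 lower and 2 to 3 higher for the mean of both arms, and 9 to 24 lower and 1 higher between the arms. Eno3 was the second member higher with GAP-2/3, and 1 remained when the libraries were scaled to one median, without the intensity trend, with only the libraries compared or without both libraries highest in Rn45s. Under all 16 alternatives 11 members were lower with GAP-2/3 and 9 were lower than with GAP-2. The replicate block gave 25 lower and 2 higher for GAP-2/3, 1 and 4 for GAP-2, 14 and 2 for the mean and 22 and 1 between the arms. The letters were not taken as pairs, since differences between A and B correlated across genes at 0.36 for GAP-scr with GAP-2 but -0.13 and -0.18 for these with GAP-2/3. Most members, such as Slc2a1, Pdk1 and Ndrg1, read higher in replicate B than in A in both GAP-scr and GAP-2. In GAP-2/3 the order was mixed. The labels do not say whether the letters pair GAP-scr with GAP-2. Over all genes the calls ran, across alternatives, from 143 to 781 lower and 353 to 1880 higher for GAP-2 (460 and 1144 as reported), 402 to 1960 and 1136 to 3776 for GAP-2/3 (1242 and 3081), 545 to 1695 and 1535 to 3456 for the mean (1052 and 2698), and 78 to 722 and 117 to 1338 between the arms (401 and 714). Members with a peak went from 0 to 1 with 10 kb on each side. The count test on whole reads was not run, since whole reads could not be recovered. The causes of these shifts were not tested, and depth is unknown.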
